A study of Mus musculus with 6 samples.

Results

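Semaphorins are secreted or membrane-bound guidance proteins, and plexins and neuropilins are their receptors. The 10 genes described here are 6 semaphorins (Sema7a, Sema4a, Sema4b, Sema4c, Sema4d and Sema4f), both neuropilins (Nrp1 and Nrp2) and 2 plexins (Plxnb2 and Plxnd1), out of 31 genes of the 3 families and 19752 genes measured. They were chosen by family membership, with their intensity and their difference between pancreas and spleen on these arrays already known. Their tissue differences are therefore given as a description, with no p-value. Where a member is said to pass a fit over all genes, that call is not a test of the member. Each gene had a single probe set naming no other gene, and its values were taken as log2 intensity.

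The RNA came from Foxp3+ regulatory T (Treg) cells, a CD4 T cell lineage that holds immune responses in check, of female NOD mice, a strain that develops autoimmune diabetes spontaneously. All mice were 10 weeks old and prediabetic, carried the Foxp3-ires-gfp reporter and had the genetic background labelled NOD NRB_SFB+. No group was treated, and the groups differed in the tissue of origin alone, with 3 arrays for the pancreas and 3 for the spleen. Cells were gated as DAPI-, CD45+, TCRb+, CD4+ and GFP+, and Affymetrix Mouse Gene 1.0 ST arrays were hybridised with amplified total RNA. Whether each array holds 1 mouse or a pool is not given in the labels, and the spread between arrays may therefore be technical.

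Class 4 semaphorins are membrane proteins of leukocytes and other cells, whereas semaphorin 7A is held in the membrane by a lipid anchor. Plexins turn semaphorin binding into changes of small GTPases, the cytoskeleton and integrin adhesion. Neuropilins have short cytoplasmic tails and act as co-receptors, for class 3 semaphorins and for vascular endothelial growth factors. In Treg cells the best known member is neuropilin 1, used as a surface marker of thymus-derived Treg cells in mice, which also binds semaphorin 4A.

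The promoters of Sema7a, the member whose arrays separated by tissue, and of Nrp1, the Treg marker whose arrays did not, are printed to show the sequence upstream of each. Both are the 250 bases before the RefSeq transcription start in GRCm38.p6, on the plus strand, at chr9:57939862-57940111 for Sema7a and chr8:128358823-128359072 for Nrp1. Capitals mark the GC box GGGCGG, a motif bound by Sp-family factors.
Sema7a: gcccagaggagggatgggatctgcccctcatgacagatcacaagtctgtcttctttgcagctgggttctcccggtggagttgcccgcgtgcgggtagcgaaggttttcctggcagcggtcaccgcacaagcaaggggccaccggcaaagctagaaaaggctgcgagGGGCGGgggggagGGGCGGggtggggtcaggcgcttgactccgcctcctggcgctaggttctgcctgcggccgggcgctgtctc
Nrp1: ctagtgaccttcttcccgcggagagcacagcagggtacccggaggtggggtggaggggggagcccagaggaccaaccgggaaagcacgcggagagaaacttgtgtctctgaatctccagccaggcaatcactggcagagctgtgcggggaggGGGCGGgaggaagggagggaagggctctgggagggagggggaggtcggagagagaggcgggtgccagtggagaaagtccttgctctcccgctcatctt

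The Sema7a window held 2 GC boxes and the Nrp1 window 1. All 10 members matched RefSeq promoters, with 18 windows in all because some genes have several start sites. A GC box on either strand stood in 14 of the 18 windows, against 32.7% of all 32851 windows of this length. The AP-1 motif TGANTCA stood in 2, one each of Sema4c and Sema4d, against 6.75% of all windows. The E-box CACGTG stood in 1, of Sema4b, against 6.02%. None of the 18 held the cyclic AMP response element TGACGTCA (in 1.55% of all windows) or the TATA box TATAAA (12.4%). Both strands were searched, and these are letter matches only. Windows of 1 gene are not independent, and Sema4a alone gave 4 of the 18 and Sema4d 3. The GC content of the windows ran from 46.0% (Sema4f) to 72.4% (Nrp2) and was not set against that of all windows. No enrichment is therefore read from these shares.

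Sema7a was higher in pancreas, and the only member whose arrays separated by tissue in the deposited values. Its log2 intensity was 7.42, 7.49 and 7.24 on pancreas arrays 1 to 3 and 6.37, 6.51 and 6.39 on spleen arrays 1 to 3. Every pancreas array was above every spleen array, and the closest pair was still 0.74 apart. The means were 7.38 ± 0.13 in pancreas and 6.42 ± 0.07 in spleen (SD, n = 3 each), a log2 difference of 0.96 ± 0.16 (SE), or 1.95-fold. All 6 arrays exceeded background, set at an intensity of 63.9 before the log2, the 95th percentile of olfactory and vomeronasal receptor genes. Semaphorin 7A is found on activated T cells and stimulates monocytes and macrophages through alpha1 beta1 integrin.

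The size of that difference was uncommon on these arrays, and the spread behind it was small. Of the 19752 genes, 179 (0.906%) were at least as far above spleen in pancreas as Sema7a. Among genes above background the number was 159 (1.36%). The difference was known when Sema7a was chosen, so these shares only describe its size. The pooled within-tissue SD of Sema7a was 0.10, and 6.61% of genes above background had a smaller one. With 1 array left out, its difference ran from 0.91 to 1.03.

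**Figure D1:**
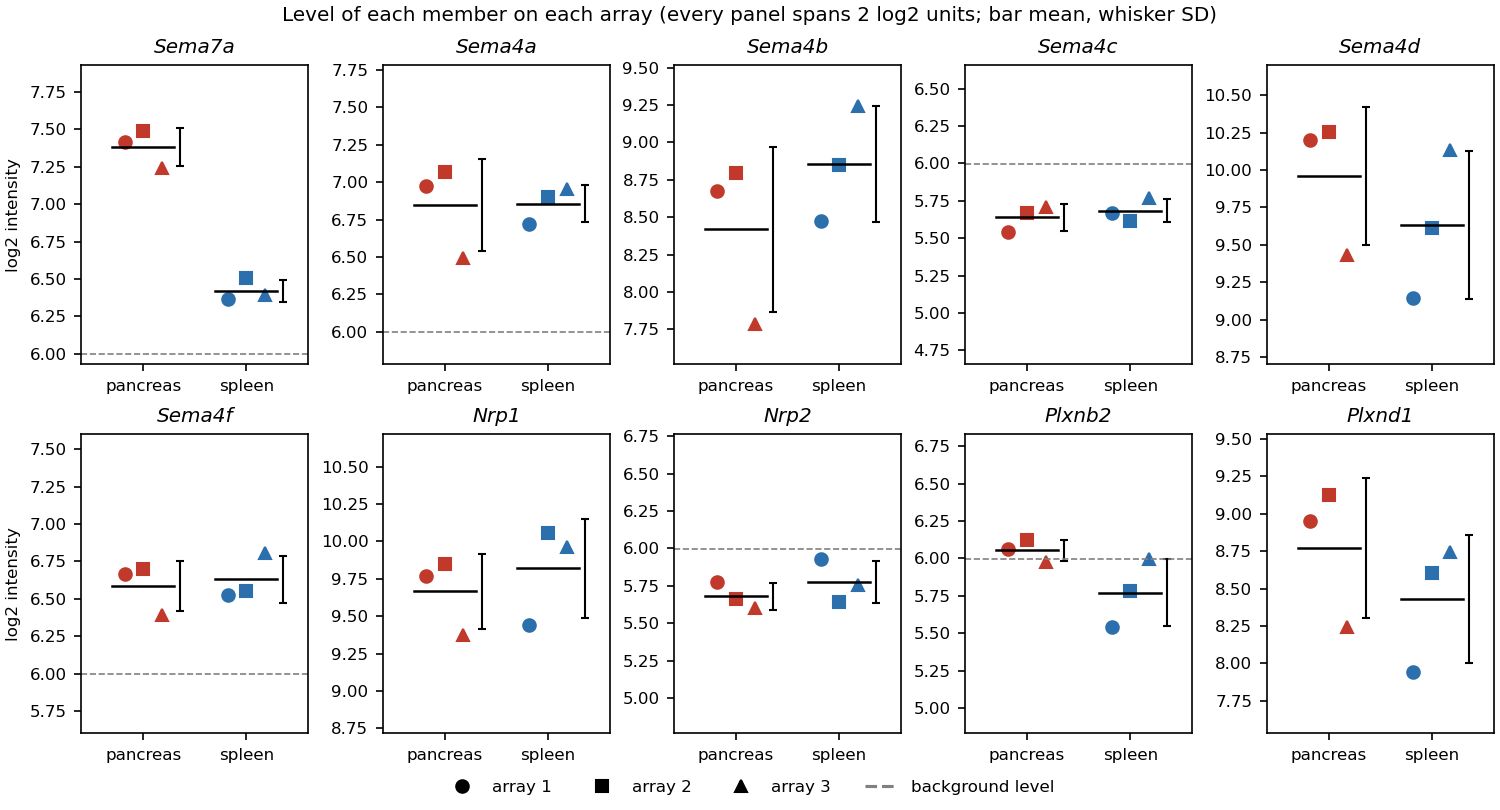
Log2 intensity of the 10 members on each array, with pancreas in red and spleen in blue, marker shape for the array number, a bar for the mean and a whisker for 1 SD (n = 3). Sema7a has all 3 pancreas arrays above all 3 spleen arrays, while Sema4c and Nrp2 lie below the dashed background level on all 6.

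Sema4a, whose protein binds neuropilin 1 on Treg cells and Plexin D1 on endothelium, was at the same mean level in both tissues. It read 6.97, 7.07 and 6.49 on the pancreas arrays and 6.72, 6.90 and 6.95 on the spleen arrays. The tissues overlapped, with pancreas array 3 the lowest of the 6, and the log2 difference was -0.01 ± 0.19 (SE).

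Sema4b, a class 4 semaphorin, leaned furthest toward spleen of the 10 members. It read 8.68, 8.80 and 7.79 in pancreas and 8.47, 8.85 and 9.24 in spleen. Pancreas array 3 was the lowest of the 6 and spleen array 3 the highest, and the tissues overlapped. The log2 difference of -0.43 ± 0.28 (SE) was smaller than the pooled SD of 0.48 and shrank to -0.12 without pancreas array 3. Without spleen array 1 it was -0.63 and the tissues did not overlap.

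Sema4d, which encodes CD100, the semaphorin long known from T cells and a ligand of plexin B1 and CD72, leaned toward pancreas. It read 10.20, 10.26 and 9.43 in pancreas and 9.14, 9.62 and 10.13 in spleen. The tissues overlapped, with pancreas array 3 below spleen arrays 2 and 3, and pancreas was higher in 7 of the 9 pairs of arrays. The means were 9.96 ± 0.46 and 9.63 ± 0.49 (SD, n = 3 each), a log2 difference of 0.33 ± 0.28 (SE). Leaving out spleen array 1 took it to 0.09, and leaving out pancreas array 3 took it to 0.60.

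Sema4f, best known from the nervous system, read between 6.39 and 6.70 in pancreas and between 6.53 and 6.81 in spleen, with overlap and a log2 difference of -0.04 ± 0.17 (SE). Sema4c, a ligand of plexin B2, read between 5.54 and 5.77 over all 6 arrays, below background on each. No tissue difference can be read for Sema4c at that level.

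Of the receptors, Nrp1 was similar in both tissues. It read 9.77, 9.85 and 9.38 in pancreas and 9.44, 10.06 and 9.96 in spleen, well above background on every array. The low values were pancreas array 3 and spleen array 1, and the tissues overlapped. The means were 9.66 ± 0.25 and 9.82 ± 0.33 (SD, n = 3 each), a log2 difference of -0.16 ± 0.21 (SE). That difference became -0.01 without pancreas array 3 and -0.34 without spleen array 1. Foxp3, which defines the sorted cells, likewise overlapped, at 11.33 to 11.66 in pancreas and 11.15 to 11.74 in spleen, as did Ikzf2 (Helios), at 11.17 to 11.43 and 11.06 to 11.29, and Cd4, at 10.86 to 11.60 and 10.98 to 11.88. Of the 11 measured sorting and identity genes, limma called 0 in either direction, with 1 at an unadjusted p under 0.05. Over all genes the shares were 0.678% and 6.84%. Beside 10.4% of all genes without overlap, 9 of the 11 overlapped between tissues. The others, named outside the rule, were Ctla4, higher on every pancreas array (log2 difference 0.60 ± 0.19 SE), and Il2ra, higher on every spleen array (-0.32 ± 0.16 SE).

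Nrp2, the receptor chain for semaphorin 3F and for VEGF-C, read between 5.60 and 5.93 and was below background on all 6 arrays. The probe sets therefore measured 1 neuropilin gene above background in these cells.

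Plxnd1, a receptor for semaphorin 3E that guides thymocytes and blood vessels, resembled Sema4d array by array. It read 8.95, 9.12 and 8.24 in pancreas and 7.94, 8.60 and 8.75 in spleen. Pancreas was higher in 7 of 9 pairs, and pancreas array 3 fell below spleen arrays 2 and 3. The log2 difference was 0.34 ± 0.27 (SE), within a pooled SD of 0.45. Without pancreas array 3 it was 0.61, and without spleen array 1 it was 0.10.

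Plxnb2, a receptor of class 4 semaphorins, lay at the background level. It read 6.06, 6.12 and 5.98 in pancreas and 5.54, 5.78 and 5.99 in spleen. Pancreas arrays 1 and 2 were above background and no spleen array was. The pancreas mean was 1.04-fold the background level, a log2 gap of 0.06 that is smaller than the SE of the tissue difference (0.17). A minimum fold between tissues is therefore not established. The measured means were 6.05 and 5.77, and 1 of the 9 pairs of arrays, pancreas array 3 against spleen array 3, ran the other way by 0.01.

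Over the 10 members, 1 (Sema7a) had arrays that did not overlap between tissues, beside 10.4% of all genes (4.57% higher in pancreas and 5.81% in spleen). Likewise 1 (Sema7a, higher in pancreas) was past the fit over all genes (limma, Benjamini-Hochberg adjusted p under 0.05), beside 0.678% of all genes (0.547% higher in pancreas and 0.132% in spleen). Nothing is read from these shares or from the call of Sema7a, since the contrast was in view when the genes were chosen. The median log2 difference of the members was -0.03, beside 0.00 over all genes. The call of Sema7a held without pancreas array 3 and ended without each of the other 5 arrays. Its arrays stayed apart in these fits, but leaving out an array cannot make separated arrays overlap.

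**Figure D2:**
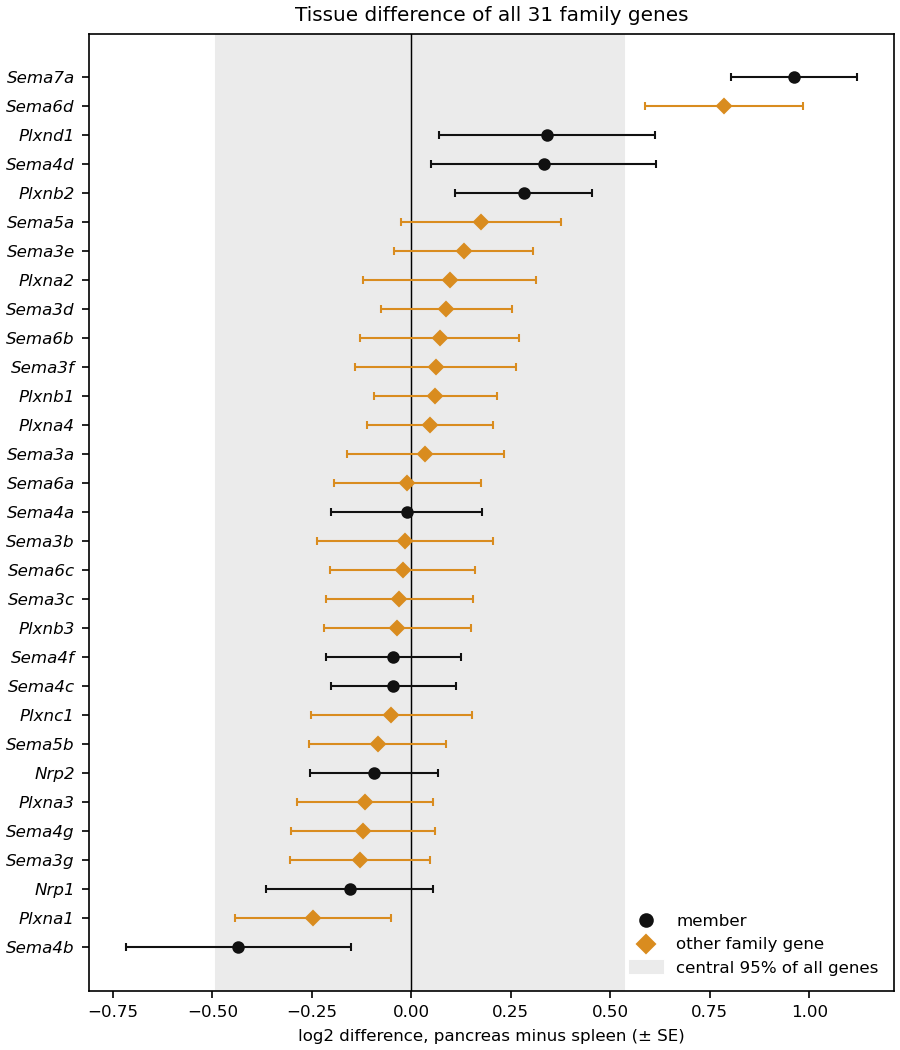
Log2 difference between tissues (pancreas minus spleen) with its SE for the 10 members (black circles) and the 21 other family genes (orange diamonds), sorted by size. The grey band holds the central 95% of all genes, from -0.49 to 0.53, and only Sema7a at 0.96 and Sema6d at 0.79 lie outside it.

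The members above background shared a pattern that was not the tissue. The arrays differed in the width of their log2 values over all genes. Among the pancreas arrays the interquartile range fell to 2.10 on array 3, from 2.95 on array 1 and 2.63 on array 2. Among the spleen arrays it was 2.38 on array 1, beside 2.69 on array 2 and 2.90 on array 3. All 7 members with a mean above background were lowest on the narrowest array of each tissue, pancreas array 3 and spleen array 1. Over all 11698 genes above background, pancreas array 3 was the lowest pancreas array for 62.4% and spleen array 1 the lowest spleen array for 49.1%. At or below background the shares were 7.29% and 10.3%. The gap was widest for Sema4b, Sema4d and Plxnd1, with a pooled SD larger than that of 96.1%, 96.3% and 94.6% of genes above background, and small for Sema7a.

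**Figure D3:**
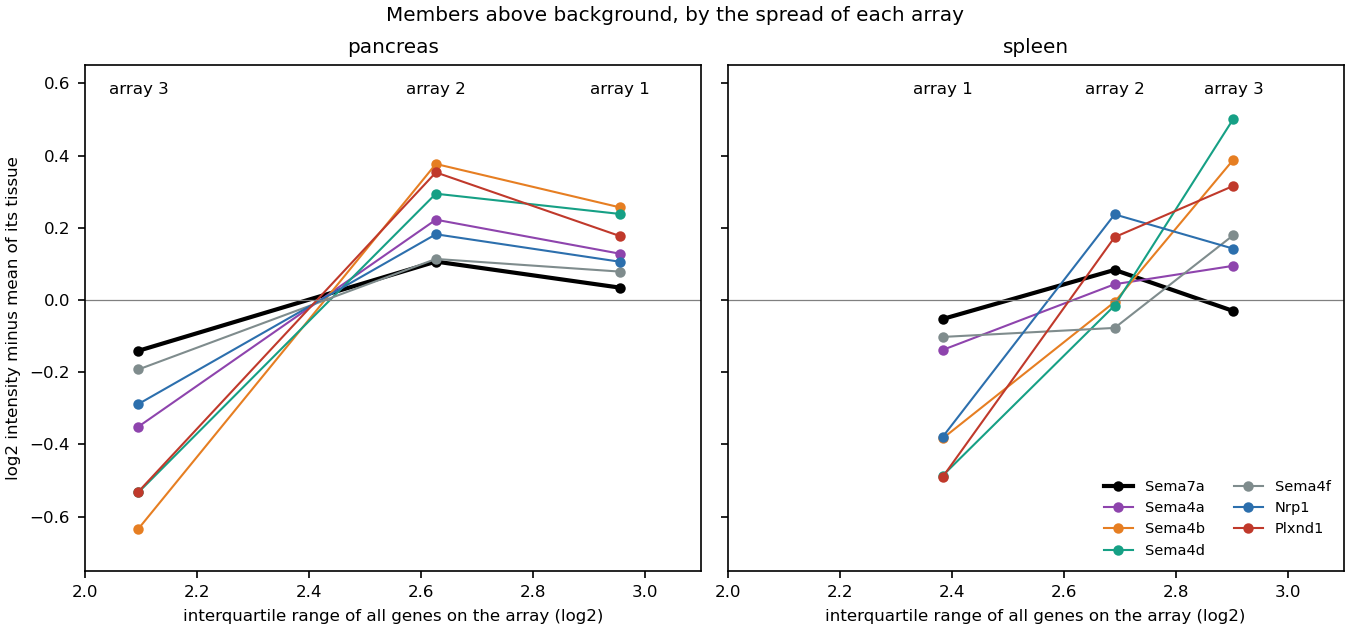
Log2 intensity of the 7 members above background minus the mean of their tissue, against the interquartile range of all genes on the array, for pancreas (left) and spleen (right). All 7 lines start below 0 at the narrowest array (2.10 in pancreas, 2.38 in spleen), with Sema7a, in thick black, the flattest in pancreas.

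With every array scaled to 1 median and interquartile range, Sema4d and Plxnd1 also separated by tissue, where 12.0% of all genes did not overlap. Quantile normalization also gives the arrays 1 width, and there both still overlapped, each with a log2 difference of 0.40. The separation of these 2 genes thus depended on how the width was set. Scaled Sema4d read 9.82, 10.21 and 10.10 in pancreas and 9.37, 9.50 and 9.81 in spleen, a log2 difference of 0.48 ± 0.17 (SE). Its lowest pancreas array was above its highest spleen array by about 0.01. Scaled Plxnd1 read 8.71, 9.08 and 8.62 in pancreas and 8.05, 8.52 and 8.57 in spleen, a difference of 0.43 ± 0.19 (SE). Scaled Sema7a differed by 0.98 ± 0.12 (SE), close to its unscaled value, and scaled Nrp1 by 0.00 ± 0.18 (SE). Neither Sema4d nor Plxnd1 was past the fit over all genes in this scaling, and the part of the width of the arrays in their overlap was not tested otherwise.

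**Figure D4:**
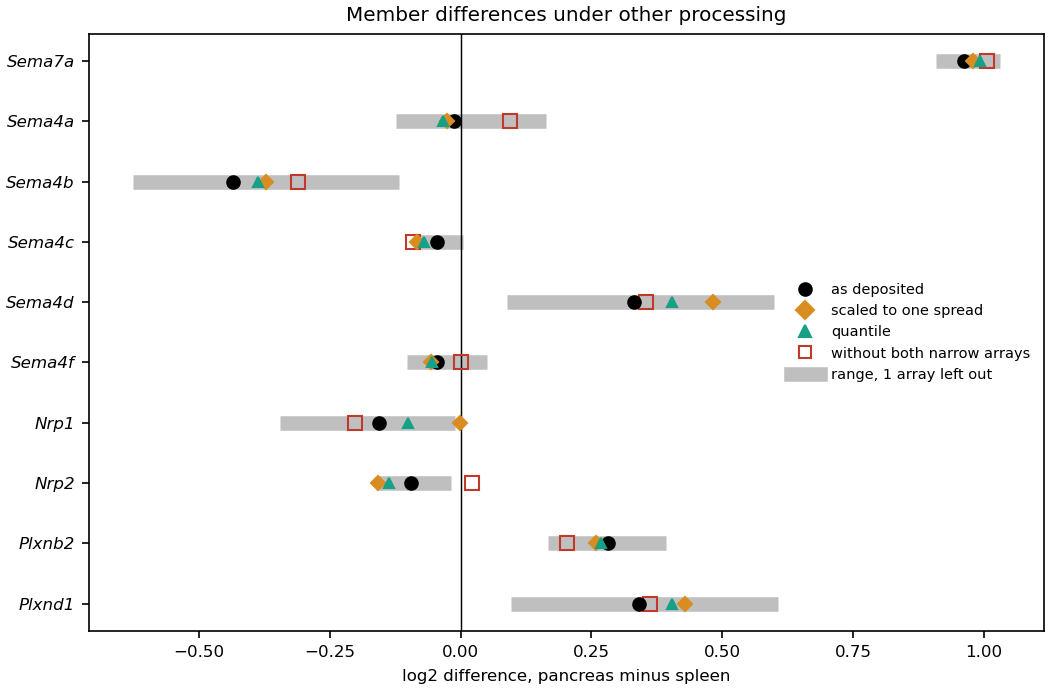
Log2 difference between tissues for each member as deposited (black circle), scaled to 1 spread (orange diamond), after quantile normalization (green triangle), without pancreas array 3 and spleen array 1 (open red square), and over the 6 fits with 1 array left out (grey bar). Sema7a stays between 0.91 and 1.03, whereas the bars of Sema4d and Plxnd1 reach from about 0.1 to 0.6. The bars of Sema4a, Sema4c and Sema4f cross 0.

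Among the 21 family genes that are not members, limma called 0 in either direction, with 1 at an unadjusted p under 0.05, beside 0.678% and 6.84% of all genes. Their median log2 difference was -0.01, and 6 of the 21 were below background on every array, among them Sema3a, Sema3c, Sema3d and Sema3e of the secreted class. The 1 gene was Sema6d, named after its values were seen, a transmembrane semaphorin that binds plexin A1 and plexin A4. It read 6.27, 6.02 and 5.83 in pancreas and 5.35, 5.49 and 4.93 in spleen. The tissues did not overlap, but no spleen array and 2 of 3 pancreas arrays were above background. The pancreas mean of Sema6d was 1.03-fold the background level, a log2 gap of 0.045 within its SD of 0.22, so no minimum fold is established. Its adjusted p was 0.152 (limma), and 0.0454 without pancreas array 3. Over all settings the limma adjusted p ran from 0.000356 to 1.00. That lowest value came from the fit with array weights, which did not converge. The next lowest was 0.0182, without pancreas array 3 and spleen array 1.

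The receptors and class 3 semaphorins that the naming rule picked did not differ beyond the spread between arrays. Plxna1, a receptor in axon guidance and in dendritic cells, read 7.66 ± 0.26 in pancreas and 7.91 ± 0.25 in spleen (SD, n = 3 each). Sema3g, a secreted ligand of neuropilin 2, read 6.39 ± 0.12 and 6.52 ± 0.23, and Plxna3 6.41 ± 0.20 and 6.52 ± 0.11. Plxnc1, the plexin that binds semaphorin 7A and was named for that reason, read 8.92, 8.44 and 8.26 in pancreas and 8.46, 8.79 and 8.53 in spleen. Its log2 difference was -0.05 ± 0.20 (SE), with overlap.

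The 4 lists of partner genes held 69 measured genes, and limma called 0 of them in either direction, beside 0.678% of all genes. Of the 69, 7 had an unadjusted limma p under 0.05, against 6.84% of all genes. Among 16 other receptors and co-receptors, the integrin chains that form the semaphorin 7A receptor did not pass. Itgb1 was at 10.12, 9.82 and 9.56 in pancreas and 10.03, 10.11 and 9.98 in spleen. Itga1, named outside the rule as its partner chain, was below background on all 6 arrays. Its log2 difference was 0.65 ± 0.17 (SE, limma adjusted p = 0.180), with every pancreas array above every spleen array. Cd72, the B cell receptor of semaphorin 4D, was below background on all 3 spleen arrays and 1 pancreas array. Tyrobp, the adaptor that joins plexin A1 and Trem2 in myeloid cells, had a log2 difference of 0.42 ± 0.17 (SE, limma adjusted p = 0.590), and the phosphatase gene Ptprj of 0.43 ± 0.19 (SE, limma adjusted p = 0.682), with no overlap between tissues for either.

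The remaining lists gave values of the same order. Of 9 other neuropilin ligands, Lgals1 (galectin 1) was at 12.28, 12.11 and 12.18 in pancreas and 11.64, 11.69 and 11.63 in spleen. Its log2 difference of 0.54 ± 0.15 (SE) did not pass (limma adjusted p = 0.235), although the arrays did not overlap. Pdgfb had a difference of 0.45 ± 0.16 (SE, limma adjusted p = 0.455), and Vegfb of -0.06 ± 0.15 (SE). Of 36 measured signalling genes, 28 were above background on all arrays. The small GTPase gene Rras2, related to the R-Ras proteins that plexins inactivate, was at 8.75, 8.35 and 7.79 in pancreas and 8.85, 8.85 and 9.20 in spleen (-0.67 ± 0.24 SE, limma adjusted p = 0.462). The actin oxidase gene Mical3 was at -0.42 ± 0.21 (SE, limma adjusted p = 0.823). Of 8 proteases, Mmp14, which sheds semaphorin 4D, had a difference of 0.31 ± 0.15 (SE, limma adjusted p = 0.820), while Furin (0.28 ± 0.34 SE) and Pcsk7 (-0.15 ± 0.25 SE) overlapped between tissues.

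Several other cell types make members of this family, and their markers were read on the same arrays. In bulk RNA, fewer cells of a type and less RNA per cell cannot be told apart. The B cell list leaned toward pancreas, with 1 of 9 genes called (Cd79a, log2 difference 1.86, limma adjusted p = 0.0482). All 9 had a higher mean in pancreas, and 8 had an unadjusted limma p under 0.05, beside 6.84% of all genes. For 7 of them every pancreas array was above every spleen array, beside 4.57% of all genes. The median log2 difference was 0.68, and the summed intensity was 941.1 to 1957 in pancreas against 701.6 to 800.9 in spleen. Ms4a1 was at 2.08 (limma adjusted p = 0.0678). In the acinar list all 11 genes had a higher mean in pancreas. Of them 9 were called higher in pancreas by limma, such as Ctrb1 (4.57) and Clps (4.37), beside 0.547% of all genes. The acinar list summed to 13222 to 26995 against 919.7 to 2598. Among the pancreas arrays, Sema7a and the acinar sum were both highest on array 2 and lowest on array 3, while the B cell sum was lowest on array 2 and highest on array 3. Sema7a ranged over 0.25 on the log2 scale across those arrays. The order of Sema7a among the pancreas arrays depends on the width of the arrays, and the acinar and B cell sums were not scaled. With every array scaled to 1 median and interquartile range, Sema7a read 7.36, 7.46 and 7.38 on pancreas arrays 1 to 3, lowest on array 1. Among the spleen arrays the acinar sum was highest on array 3, where Sema7a was between the other spleen values. The part of these cells in the Sema7a difference was not tested.

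Of 11 macrophage and dendritic cell markers, 1 was called higher in pancreas, beside 0.547% of all genes. It was Lyz2 (1.90, limma adjusted p = 0.00134), while Cd68 was not called (0.54, limma adjusted p = 0.473). For 3 of the 11 every pancreas array was above every spleen array, beside 4.57% of all genes, and for 0 the reverse. The summed intensity was 875.0 to 938.0 in pancreas and 617.4 to 699.8 in spleen, and Adgre1, Cd14, Clec9a, Csf1r, Flt3 and Itgax were below background on all 6 arrays. Plxnd1 and Nrp1 are also genes of endothelium. There, 0 of 10 markers were called by limma, with 1 at an unadjusted p under 0.05, beside 0.678% and 6.84% of all genes. Of the 10, 5 (Cdh5, Emcn, Plvap, Tek and Tie1) were below background on every array. Above background on all 6 were 3, Pecam1, Egfl7 and Cldn5, and Esam and Robo4 were above it on some arrays. The endothelial sum of 1001 to 1039 in pancreas and 1276 to 1353 in spleen was led by Pecam1, also a T cell gene, at 8.80 against 9.62 (limma adjusted p = 0.112), and Egfl7 was at 7.17 against 7.08.

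Of 7 CD8 T and NK cell markers, limma called 1, Klrd1, higher in pancreas by 0.98 on the log2 scale, beside 0.547% of all genes. Klrd1, Ncr1 (0.86) and Klrk1 (0.84), all named outside the rule, were below background on all 6 arrays. They were higher on every pancreas array than on any spleen array, beside 4.57% of all genes. The sums of 622.4 to 773.1 and 567.0 to 692.5 overlapped. Cd8b1 was at 7.42 against 7.44 and Eomes at 7.34 against 7.39. By limma 0 of the duct (5), islet (7), fibroblast and stellate (8) and nerve (4) markers were called in either direction, and 0 reached an unadjusted p under 0.05. Their summed intensities overlapped between tissues for islet, fibroblast and nerve lists and for the duct list, which ran from 305.4 to 367.6 in pancreas and from 297.5 to 316.7 in spleen. Epcam, of duct cells, did not overlap between tissues, at 6.68 against 6.33 (log2 difference 0.35 ± 0.18 SE, limma adjusted p = 0.864). The other genes the rule picked from these lists overlapped, with means in pancreas and spleen of 6.41 and 6.48 for Sox9, 6.55 and 6.34 for Ins2, 7.20 and 7.38 for Ppy, 7.37 and 7.25 for Col1a1, 6.76 and 6.66 for Col1a2, 6.83 and 6.91 for Ngfr, and 6.38 and 6.38 for Sox10.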

How the data were processed

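Values were deposited as linear probe-set intensity for 6 arrays. Per the submitters' processing notes, the authors used RMA and Affymetrix Power Tools, with versions not given in the sources used here. RMA corrects background, normalises arrays together and summarises probes. The deposited columns still differed in width, and the step that set arrays to 1 scale is not described in the labels. RNA amplified from small sorted samples can alter that width.

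Values were taken to log2 with no pseudocount or filter. Of 24922 probe sets, 21425 name 1 gene, 1399 several and 2098 none, per the platform annotation. Only the first were used, and for 921 genes with several the one with the highest mean was kept, leaving 19752 genes. Of the 21425, 21347 matched RefSeq of GRCm38.p6 by gene ID. No member, and no other gene of the families, stood on a probe set naming several genes. Background was the 95th percentile of the mean over 1194 olfactory and vomeronasal receptor genes. Where all arrays of 1 tissue were below it, the fold of the other tissue's mean over that level is given, without an error.

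Tissues, taken from the sample titles, were compared with limma 3.58.1 in R 4.3.3 (lmFit, eBayes, two-sided, no covariates, Benjamini-Hochberg over all genes, threshold 0.05), after a test on simulated data. SEs are from that fit. Members and lists were chosen with earlier results of these data known. Text names all members, and from each partner list and the other family genes those past the test or otherwise up to 3 above background with the smallest p. From each list of other cells it names up to 2 above background with the largest difference, where the list is described. Genes outside that rule are said to be so. Of the genes the rule picks, 1 is not reported here. Listed genes whose probe set names other genes too, or that have none, were left out. Alternatives covered normalization, spread, dim genes, background, probe sets, variance model, array weights, leaving out each array, and a block on the replicate number. Leaving out pancreas array 3 and spleen array 1 together was added after seeing the data. With 3 arrays a tissue, precision is limited by their number. Figures used matplotlib 3.10.9.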

Additional observations from a re-analysis of the deposited data

How the results depend on the processing

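Under the 16 alternatives Sema7a kept its direction, with a log2 difference of 0.91 to 1.03. Its arrays also stayed apart, but only the settings that centred, scaled or quantile-normalised the arrays could have changed that. Leaving out arrays or changing the variance model cannot make separated arrays overlap, nor can a raised floor that lies below all values of Sema7a. The call of Sema7a ended with values raised to the background level. The median difference of the members ran from -0.07 to 0.14. The number of members whose arrays did not overlap rose from 1 (beside 10.4% of all genes) to 3 with the arrays scaled to 1 spread, where 12.0% of all genes did not overlap, and to 7 without pancreas array 3 and spleen array 1, where the share was 30.5%. After quantile normalization the number stayed at 1, where the share was 14.4%. It ran from 1 to 5 with 1 array left out. It was 5 without pancreas array 3 (20.3% of all genes), 3 without spleen array 1 (19.7%), 2 without spleen array 3 and 1 in the other 3 of these fits, while the share over all genes ran from 13.8% to 30.4%.

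Of the other family genes, 5 passed with array weights, 1 (Sema6d) without pancreas array 3 and spleen array 1, and 0 to 1 with 1 array left out. Of the partner genes, 29 passed with array weights and 0 in each other fit. The array weights did not converge and gave 7206 calls over all genes (36.5%), with Sema7a, Sema4d, Plxnb2 and Plxnd1 among them. The 134 calls over all genes became 64 with arrays centred on their median, 212 after quantile normalization, 66 with arrays scaled to 1 spread, 3 with values raised to the background level, 347 without pancreas array 3 and spleen array 1, and 64 to 262 with 1 array left out (64 without spleen array 1, 66 without pancreas array 2, 74 without spleen array 3, 87 without spleen array 2, 262 without pancreas array 3). The cause was not tested. Plxnb2 moved to 0.06 with values raised to the background level, which by construction lifts its spleen arrays.

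Deviations from the tissue mean correlated at -0.465, 0.115 and -0.677 for same-numbered arrays. The highest correlation, 0.647, was between pancreas array 3 and spleen array 1, the narrowest of each tissue. Because the width of the arrays enters these deviations, they cannot tell whether the replicate numbers pair the arrays. With the replicate number as a block 132 genes passed, 0 of them other family or partner genes, and Sema7a kept 0.96 with a SE of 0.23 and was not past the test. With 3 arrays a tissue, and members at or near background (Sema4c, Nrp2 and Plxnb2), small differences were not detectable.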
